A study of Mus musculus with 4 samples.

Results

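Platelets are shed by megakaryocytes and carry a set of transcripts that few other cells share. They include chemokines stored in alpha granules, the subunits of the glycoprotein Ib-IX-V complex that binds von Willebrand factor, and the receptors GPVI and CLEC-2, which signal through the kinase Syk when collagen or podoplanin binds them. In tumours, platelets attach to circulating tumour cells, and podoplanin on tumour cells is a known trigger of platelet activation. The 8 genes followed here are Pf4, Ppbp, Gp1bb, Gp9, Gp5, Gp6, Treml1 and Clec1b. They were taken by name from the array annotation, with every probe that was not a control: 11 probes, from 56605 probes and 37074 gene names on the array. Of the 8 genes, 5 had 1 probe and 3 had 2 probes.

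RNA came from 4T1, a mouse mammary carcinoma line, grown as tumours in BALB/C mice with no treatment. Cells were sorted by their aldehyde dehydrogenase (ALDH) activity, read from a dye that the enzyme turns fluorescent (ALDEFLUOR). The 4 groups were ALDH-high and ALDH-low cells at zeitgeber time ZT12, and ALDH-high and ALDH-low cells at ZT0. Each group had 1 one-colour Agilent array and no replicate, so no difference below carries a replicate error, and the number of arrays limits its precision. The labels used here do not say how many mice gave a fraction or how well the tumour cells were separated from the blood cells around them. In sorted bulk RNA, fewer cells of a type and less RNA per cell cannot be told apart.

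Each value, called a level here, is the log2 ratio of a probe's background-subtracted signal to the 75th percentile of signals on that array. That percentile was 156.3 on the ZT12 ALDH-high array, 458.8 on ZT12 ALDH-low, 300.6 on ZT0 ALDH-high and 213.6 on ZT0 ALDH-low. A probe counted as detected where the scanner software marked it as well above background. This held for 55.8% to 60.6% of spots, and 0 spots were saturated. Levels of different probes are not compared with each other, except in the summed levels of the neutrophil and macrophage lists. Those add the levels of different probes on the linear scale, so the brightest probes weigh most. Slide 2 carried the ZT12 arrays and slide 1 the ZT0 arrays, which means that a time effect and a slide effect cannot be told apart. The ZT12 ALDH-high and ZT0 ALDH-low arrays shared position 1_1, and the other two shared position 1_2, so position likewise cannot be told apart from the ALDH by time difference. Slopes of the spike-in controls were out of the software's range at position 1_1 (0.789 and 0.873) and within it at position 1_2 (0.944 and 0.956).

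The label of the gene set was first checked against its genes. Of the 8 genes, 6 were detected on all 4 arrays (Pf4, Ppbp, Gp1bb, Gp6, Clec1b and Treml1), Gp9 on 2 arrays and Gp5 on none. The second probes of Gp1bb, Gp6 and Treml1 were detected on no array. Of 38 further platelet and megakaryocyte genes, 29 were detected on all 4 arrays, but Gp1ba, the ligand-binding subunit of the Ib-IX-V complex, Tubb1, the tubulin of the platelet rim, and F2rl3, a thrombin receptor, were detected on none. The 8 genes did not share a pattern over the arrays. They are therefore described one by one.

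Regulatory sequence is shown for Pf4 and Clec1b, whose levels differed most across the arrays and in opposite directions, for Ppbp, the neighbour of Pf4 on chromosome 5, and for Gp9. The sequences are RefSeq promoters of build GRCm38.p6, from 250 bases before to 50 bases after the annotated start site, written 5′ to 3′ on the strand of the gene. All 8 genes matched 1 promoter each. Capitals mark matches, on either strand, to motifs of 3 factor families of megakaryocytes: GATA, ETS and RUNX. The GATA letters searched were AGATAA with its variant AGATAG, and TGATAA with its variant TGATAG. The ETS letters were AGGAAG with its variant CGGAAG, and the RUNX letters were TGTGGT. No match overlapped another in the windows printed.
Pf4, chr5:90772185-90772484, plus strand: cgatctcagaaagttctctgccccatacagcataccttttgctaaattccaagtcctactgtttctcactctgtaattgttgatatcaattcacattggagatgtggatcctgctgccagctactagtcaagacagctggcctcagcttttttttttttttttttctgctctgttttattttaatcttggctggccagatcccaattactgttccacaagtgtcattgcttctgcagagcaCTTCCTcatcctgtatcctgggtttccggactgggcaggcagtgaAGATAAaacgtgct
Ppbp, chr5:90768268-90768567, plus strand: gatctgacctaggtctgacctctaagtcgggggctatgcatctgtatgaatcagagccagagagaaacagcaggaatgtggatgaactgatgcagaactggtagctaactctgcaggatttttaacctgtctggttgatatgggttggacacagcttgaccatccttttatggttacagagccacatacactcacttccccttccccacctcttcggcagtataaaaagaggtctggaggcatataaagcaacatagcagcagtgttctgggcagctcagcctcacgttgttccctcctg
Clec1b, chr6:129397047-129397346, plus strand: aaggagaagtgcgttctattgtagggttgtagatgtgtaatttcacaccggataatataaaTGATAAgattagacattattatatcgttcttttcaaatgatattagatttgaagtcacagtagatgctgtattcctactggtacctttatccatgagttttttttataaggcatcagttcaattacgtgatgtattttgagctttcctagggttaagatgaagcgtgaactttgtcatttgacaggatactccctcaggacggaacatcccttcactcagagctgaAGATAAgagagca
Gp9, chr6:87777820-87778119, plus strand: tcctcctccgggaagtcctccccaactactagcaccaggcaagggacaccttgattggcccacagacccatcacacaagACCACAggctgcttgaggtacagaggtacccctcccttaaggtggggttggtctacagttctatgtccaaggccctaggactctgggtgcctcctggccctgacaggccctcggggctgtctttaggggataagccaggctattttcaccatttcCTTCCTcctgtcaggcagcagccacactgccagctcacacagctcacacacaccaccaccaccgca
Counting the start site as position 1, the Pf4 window holds an ETS match on the opposite strand whose first base is at -9, and AGATAA at 37. The Clec1b window holds TGATAA at -189 and AGATAA at 38. Both promoters thus carry the same GATA letters, on the strand of the gene, 1 base apart in their distance from the start site. Gp9 holds 1 RUNX and 1 ETS match, and no listed motif lies in the windows of Ppbp and Treml1. Of the other members, Gp5 holds 3 GATA and 1 ETS matches, Gp1bb 1 GATA and 2 ETS matches, and Gp6 1 GATA match. Over 32851 promoters of the same length, 29.8% hold a GATA match, 46.5% an ETS match and 16.8% a RUNX match, so such matches are frequent. Ppbp and Pf4 lie side by side among protein-coding genes, between Cxcl5 and Cxcl3.

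The granule chemokines come first. Pf4 encodes platelet factor 4, a chemokine that binds heparin, and Ppbp encodes the precursor of CXCL7, a ligand of the neutrophil receptor CXCR2. The Pf4 probe lies on chr5:91202275-91202334 (build mm9, plus strand). Its level was 2.01 in ALDH-high cells and 4.80 in ALDH-low cells at ZT0, a difference of -2.79, or 6.93-fold lower in ALDH-high cells. At ZT12 it was 5.25 in ALDH-high cells and 3.24 in ALDH-low cells, a difference of 2.01, or 4.02-fold higher in ALDH-high cells. Pf4 was therefore highest in ZT12 ALDH-high and ZT0 ALDH-low cells and lowest in ZT0 ALDH-high cells. The signals before scaling were 1207 in ALDH-high and 5943 in ALDH-low cells at ZT0, and 5956 in ALDH-high and 4345 in ALDH-low cells at ZT12. The signals at ZT12 thus differed less before the scaling than the levels did after it. The level of Ppbp was -0.92 in ALDH-high and -0.36 in ALDH-low cells at ZT0, and -0.08 in ALDH-high and -0.32 in ALDH-low cells at ZT12. Its probe (chr5:91198970-91199029) was detected on all 4 arrays, and its ALDH differences of -0.57 and 0.24 stayed under 2-fold beside those of its genomic neighbour Pf4.

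**Figure D1:**
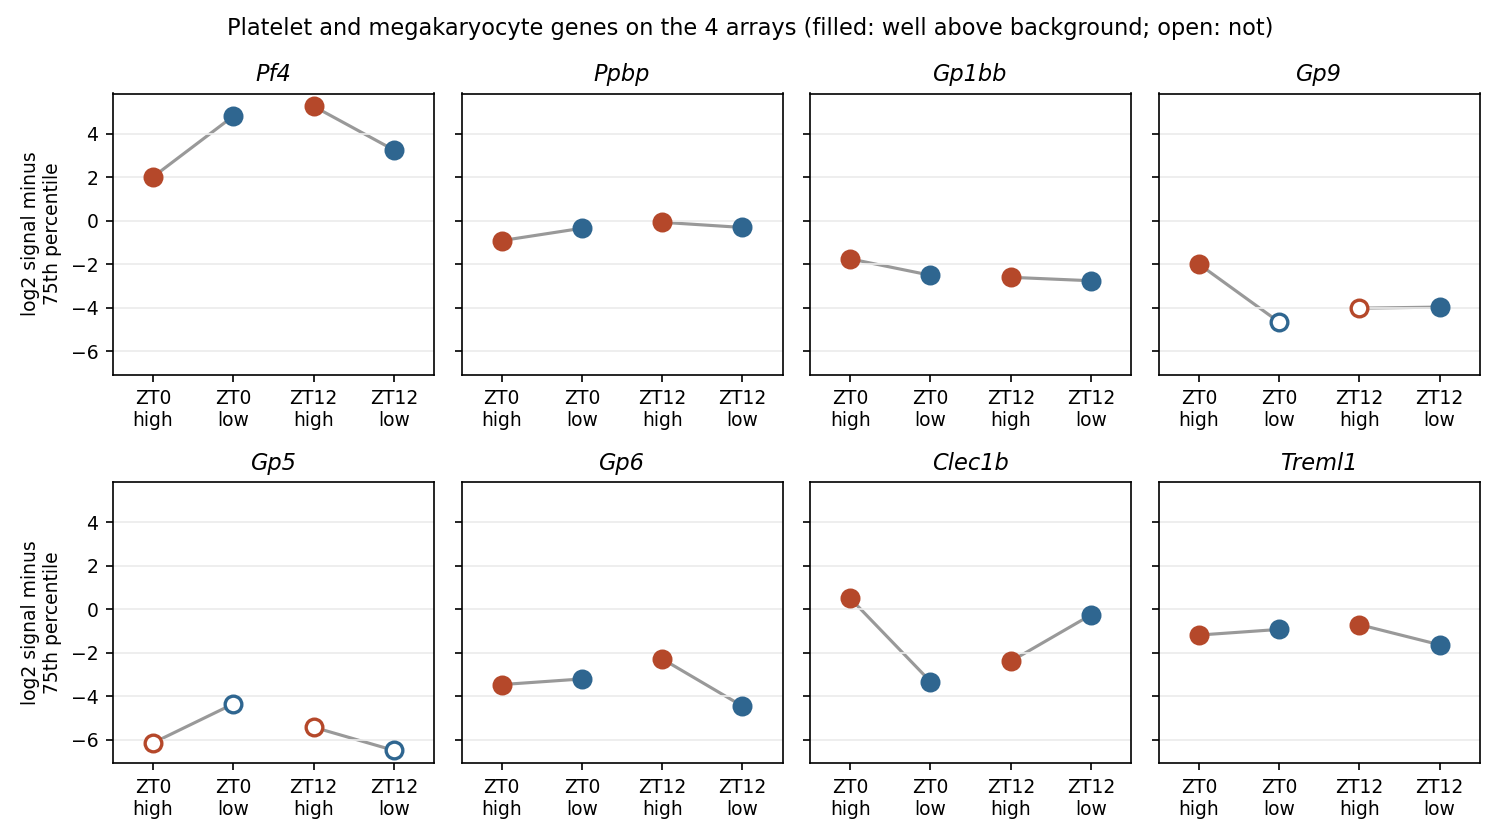
Level of each of the 8 genes (log2 signal relative to the array's 75th percentile, y axis) on the 4 arrays, with ALDH-high in red and ALDH-low in blue, lines joining the fractions of 1 time, and open symbols for probes not well above background. Pf4 ran from 2.01 to 5.25 and Clec1b from -3.34 to 0.49, with the 2 higher arrays of each gene being the 2 lower arrays of the other, while Ppbp, Treml1 and Gp1bb spanned 0.84, 0.93 and 1.004.

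The adhesion complex followed. Gp1bb, Gp9 and Gp5 encode subunits of the glycoprotein Ib-IX-V complex, through which platelets catch von Willebrand factor on damaged vessel walls. Gp9 was detected in ZT0 ALDH-high cells at -2.003 and in ZT12 ALDH-low cells at -3.98. In ZT0 ALDH-low cells (-4.67) and ZT12 ALDH-high cells (-4.03) it was not well above background. It was at least 3.69-fold higher in ALDH-high than in ALDH-low cells at ZT0, and at ZT12 the bound gives no fold. A bound divides the detected value by the dim array's lowest detected signal, or by the dim value itself where that is higher. Gp5 was not well above background on any array, with signals of 3.62 to 10.4, and no fold can be given.

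Gp1bb had a level of -1.77 in ALDH-high and -2.52 in ALDH-low cells at ZT0, and -2.61 in ALDH-high and -2.77 in ALDH-low cells at ZT12. The differences were 0.75 and 0.16, the only member detected on all arrays with the same sign at both times. The sequence of its detected probe is shown because its base composition is unusual: 80.0% of the bases are G or C. It is written in lower case with no part marked.
Gp1bb probe, chr16:18621107-18621166 (mm9, minus strand): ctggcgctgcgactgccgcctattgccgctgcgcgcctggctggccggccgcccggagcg
With the mean of both Gp1bb probes in place of this one, the ZT0 difference was -0.43, so its sign depends on a second probe that no array detected, and its ZT12 difference was negative with quantile normalization, median scaling, normexp and the series table. Septin5 lies next to Gp1bb, and in human, transcripts that read from SEPTIN5 through GP1BB are known, so a probe for Gp1bb could also read such a transcript.

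The signalling receptors gave the other large differences. Clec1b encodes CLEC-2, the podoplanin receptor of platelets, which in mouse is also found on neutrophils. Its level (probe on chr6:129355215-129355274, mm9) was 0.49 in ALDH-high and -3.34 in ALDH-low cells at ZT0, a difference of 3.83 or 14.2-fold higher in ALDH-high cells. At ZT12 the level was -2.40 in ALDH-high and -0.27 in ALDH-low cells, a difference of -2.14 or 4.39-fold lower in ALDH-high cells. Both differences were opposite in sign to those of Pf4. The signals before scaling were 423 in ALDH-high and 21.1 in ALDH-low cells at ZT0, and 29.5 in ALDH-high and 381 in ALDH-low cells at ZT12, so the order of the arrays is the same before and after scaling. The signals of 21.1 and 29.5, with errors given by the scanner software of 4.32 and 4.98, are near background, which limits both folds. With normexp background correction and quantile normalization the differences were 2.24 at ZT0 and -1.48 at ZT12.

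Gp6 encodes GPVI, the platelet collagen receptor. Its level was -3.47 in ALDH-high and -3.22 in ALDH-low cells at ZT0, and -2.29 in ALDH-high and -4.46 in ALDH-low cells at ZT12, a difference of 2.17 at ZT12. The signals before scaling were 27.0, 23.0, 31.9 and 20.8 in ZT0 ALDH-high, ZT0 ALDH-low, ZT12 ALDH-high and ZT12 ALDH-low cells, with errors given by the scanner software of 4.09, 4.18, 4.90 and 4.35 in the same order. These signals are near background, and with normexp background correction and quantile normalization the ZT12 difference was 0.35. Treml1 encodes TLT-1, a receptor stored in platelet granules. Its level was -1.20 in ALDH-high and -0.94 in ALDH-low cells at ZT0, and -0.72 in ALDH-high and -1.65 in ALDH-low cells at ZT12, and it stayed under 2-fold at both times.

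Set against all features, the 6 genes detected on both arrays of a comparison stand as follows. At ZT0, 1 of 6 was at least 2-fold higher in ALDH-high cells (Clec1b), against 20.0% of all features tested, and 1 of 6 was lower by as much (Pf4), against 29.2%. In either direction this makes 2 of 6, against 49.3%. At ZT12, 2 of 6 were at least 2-fold higher (Pf4 and Gp6), against 28.9%, and 1 of 6 was lower by as much (Clec1b), against 17.9%. In either direction this makes 3 of 6, against 46.8%. The median difference was -0.26 for the members and -0.30 for all features at ZT0, and 0.58 for the members and 0.22 for all features at ZT12. Of the 6, 5 changed sign between the times, as did 84.8% of all features, and 0 of 6 were past 2-fold in the same direction at both times, against 0.249%. For Ppbp, Gp6 and Treml1 this change of sign depends on the processing. One member, Pf4, was 2-fold lower and then 2-fold higher, against 17.5% of features, and Clec1b was the reverse, against 15.9%. The shares of the members are near those of the array as a whole.

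**Figure D2:**
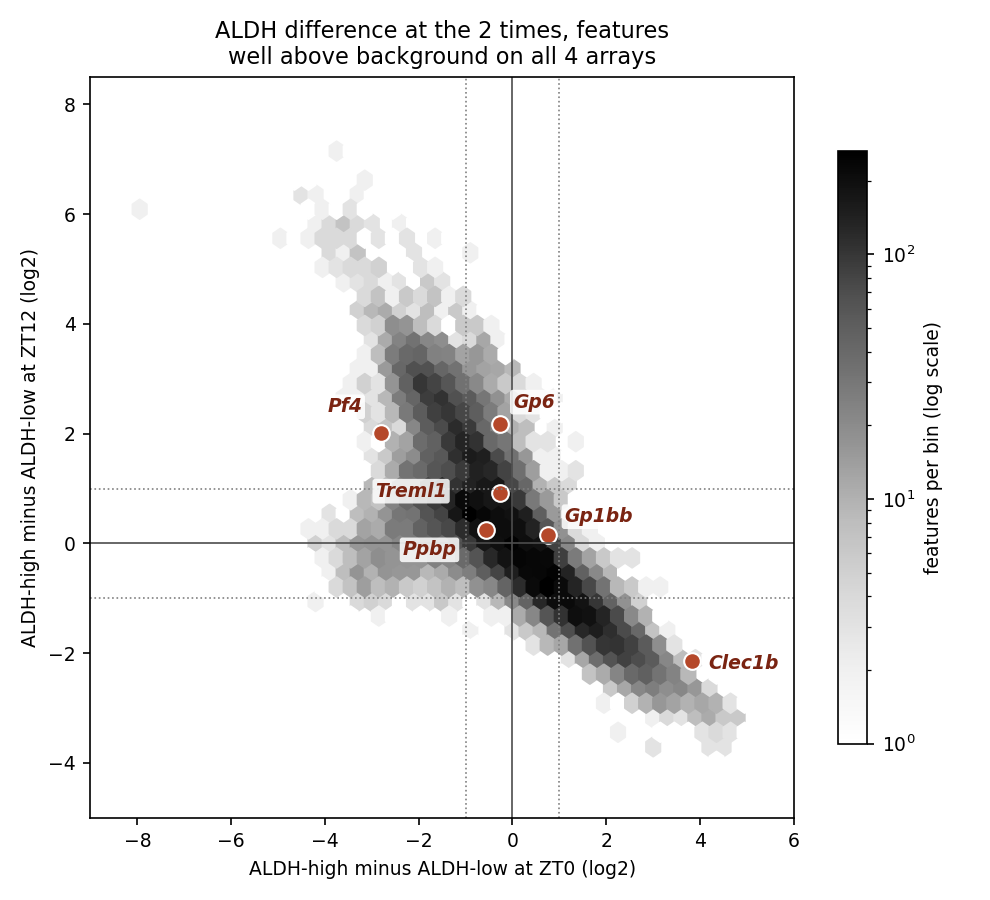
ALDH-high minus ALDH-low difference at ZT0 (x axis, log2) against that at ZT12 (y axis, log2) for features well above background on all 4 arrays, shaded by number per bin, with the 6 members in red and dotted lines at 2-fold. Most features lie along the falling diagonal, as do Pf4 (-2.79 and 2.01) and Clec1b (3.83 and -2.14).

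No member was called in a test across all features. An additive limma fit of ALDH arm and time over 23520 features had a median standard error of 1.54 log2 units for either estimate. It left 1 residual degree of freedom, the ALDH by time difference. It called 0 features for ALDH at an adjusted p of 0.05 (7 at an unadjusted p under 0.05) and 0 for time (2 unadjusted). The ALDH estimates were -0.39 for Pf4, 0.85 for Clec1b, 0.96 for Gp6 and 1.31 for Gp9, with limma adjusted p of 1 for each. The Gp9 estimate rests in part on values not well above background, those of ZT0 ALDH-low and ZT12 ALDH-high cells. The 2 times are not replicates of 1 condition, so this fit supports nothing alone.

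The comparisons between times use the same 4 arrays again. In ALDH-low cells, Clec1b was 3.07 higher at ZT12 than at ZT0 (1 of 6 members at least 2-fold higher, against 17.5% of features). Pf4 was 1.56 lower and Gp6 1.25 lower there (2 of 6, against 28.5%), which makes 3 of 6 in either direction, against 46.0%. With median scaling the Pf4 difference was -0.68, and that of Gp6 stayed past 2-fold in 2 of 6 alternatives. In ALDH-high cells, Pf4 was 3.25 and Gp6 1.18 higher at ZT12 (2 of 6, against 31.7%), and Clec1b was 2.90 lower (1 of 6, against 20.2%), which makes 3 of 6 in either direction, against 51.9%. Gp6 stayed past 2-fold here in 2 of 6 alternatives too. Gp9 was at least 2.64-fold lower in ZT12 than in ZT0 ALDH-high cells. The whole range over the arrays was 3.83 for Clec1b, larger than that of 97.4% of features, and 3.25 for Pf4, larger than 93.7%. It was 2.17 for Gp6, against 1.38 for the median feature.

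Because array position goes with the ALDH by time difference, arrays of 1 position were also compared. At position 1_1, ZT12 ALDH-high minus ZT0 ALDH-low was 0.45 for Pf4 and 0.93 for Clec1b. At position 1_2, ZT0 ALDH-high minus ZT12 ALDH-low was -1.24 for Pf4 and 0.76 for Clec1b. Both of these comparisons also differ in time. The differences of both genes were thus smaller within a position than within a time. This did not hold for every member. At position 1_2, Gp1bb differed by 1.004, more than its 0.75 at ZT0 and 0.16 at ZT12. Gp9, detected on both arrays there, differed by 1.98. Shares over all features were not computed within a position, so whether the smaller differences are particular to Pf4 and Clec1b is not shown. Whether position contributes to the differences of Pf4 and Clec1b was not tested.

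More of the other platelet and megakaryocyte genes had the pattern of Clec1b than that of Pf4. Of 31 genes detected on both ZT0 arrays, 15 were higher in ALDH-high cells by 2-fold or more, against 20.0% of all features, and 3 were lower, against 29.2%. The median was 0.85, against -0.30 for all features. Of 29 at ZT12, 4 were higher by 2-fold or more, against 28.9%, and 12 were lower, against 17.9%. The median there was -0.70, against 0.22 for all features. Of 29 detected on all arrays, 11 were 2-fold higher at ZT0 and 2-fold lower at ZT12, against 15.9% of features, and 1 had the reverse, against 17.5%. The same held for 2 of 4 pan-leukocyte and 4 of 7 neutrophil genes detected on all arrays, with 0 the reverse. The pattern is thus not particular to platelet genes, and which cells gave these values was not tested. Nfe2, a transcription factor of late megakaryocytes, had a level of 5.59 in ALDH-high and 1.68 in ALDH-low cells at ZT0, and 1.91 in ALDH-high and 4.82 in ALDH-low cells at ZT12. Its differences were 3.91 and -2.91. Fli1 had 1.78 and -1.18, Gfi1b 1.57 and -0.91, and Selp, encoding P-selectin, 1.66 and -0.70. Both other detected Selp probes had larger differences, 3.23 and 3.57 at ZT0 and -3.10 and -1.93 at ZT12. Among genes named after their values were seen, P2ry1 and P2ry12, the ADP receptors, had 3.79 and -2.69, and 2.35 and -1.40. Rab27b, which serves granule release, was the only gene 2-fold lower and then 2-fold higher (-1.48 and 2.86).

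Further genes of the lineage were also measured. Itgb3, the integrin beta chain of the fibrinogen receptor, had differences of -0.35 and 0.16. Itga2b, the alpha chain that pairs with Itgb3, had 0.76 at ZT0 and was at least 1.46-fold lower in ALDH-high cells at ZT12. Vwf had 0.85 and -0.24, with another detected probe of opposite sign (-1.18 and 2.47). F13a1 had -0.61 and -0.06, and Thbs1 -0.45 and -1.04. For Itgb3 at ZT0 and for F13a1 and Thbs1 at ZT12, 1 other detected probe had the opposite sign. Gata1, the main GATA factor of the lineage, was detected on both ZT0 arrays alone, with -0.75.

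**Figure D3:**
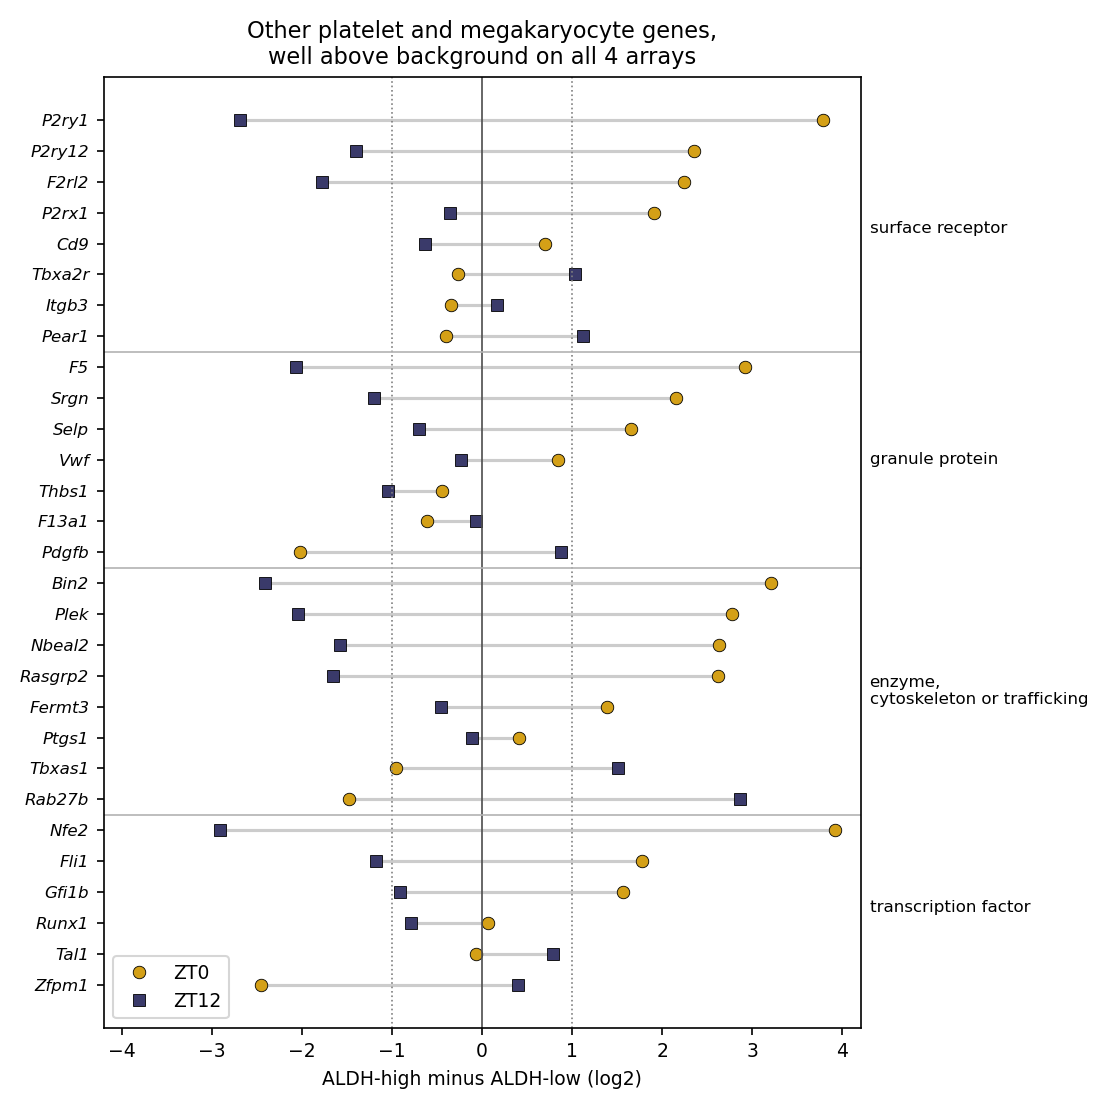
ALDH-high minus ALDH-low difference (x axis, log2) at ZT0 (circles) and ZT12 (squares) for the 29 other platelet and megakaryocyte genes detected on all 4 arrays, grouped by role, with dotted lines at 2-fold. Nfe2, P2ry1 and Rab27b are among the widest pairs, and Itgb3 lies near 0.

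Downstream of GPVI and CLEC-2, all 8 listed signalling genes were detected on all arrays, and 6 were 2-fold higher at ZT0 and 2-fold lower at ZT12, against 15.9% of features. Lat, an adaptor that is also expressed in T cells, was the reverse, with -2.39 and 4.195, and was named after its values were seen. Syk, the kinase of both receptors, had differences of 3.08 and -2.57, Fcer1g, the signalling chain of GPVI, 1.996 and -1.05, and Plcg2 0.88 and -0.73. These genes also work in myeloid cells. Of the ligands, Pdpn, encoding podoplanin, had -1.36 and 1.14, the reverse of its receptor Clec1b, and Col1a1, a GPVI ligand, -0.65 and 0.94. Cxcr2, the receptor for the Ppbp product, had 4.69 and -3.18.

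Markers of other cells also differed between the arrays. Over the mean of centred log2 levels, Clec1b had the signs of the pan-leukocyte and neutrophil lists on the 4 arrays. Of the neutrophil list, 7 of 7 genes were detected on all arrays and 4 were 2-fold higher at ZT0 and 2-fold lower at ZT12, against 15.9% of features. S100a8 (0.35 and 0.57) and S100a9 (-0.26 and 1.27) did not share the signs of Clec1b at both times. The summed level of the list, unlike Clec1b, was higher in ALDH-high cells at both times: 11.41 in ALDH-high and 10.61 in ALDH-low cells at ZT0, and 11.12 in ALDH-high and 10.58 in ALDH-low cells at ZT12. By the same mean, Pf4 had the signs of the macrophage, T and NK cell, B cell, erythroid and endothelial lists. Of the macrophage list, 4 of 7 genes were 2-fold lower and then 2-fold higher (C1qa -2.80 and 3.19, Mrc1 -2.37 and 1.55), against 17.5% of features. Csf1r (0.61 and -0.27) and Cd68 (0.36 and -0.08), of the same list, had signs opposite to those of Pf4 at both times. The summed macrophage level was 7.20 in ALDH-high and 7.52 in ALDH-low cells at ZT0, and 7.80 in ALDH-high and 7.12 in ALDH-low cells at ZT12. Ptprc, the leukocyte antigen CD45, had 3.09 and -2.35, with 1 other detected probe of opposite sign at each time. Hba-a1, an alpha globin gene, had -7.85 and 6.16, and the epithelial gene Epcam had -3.57 and 1.08. Alas2, an enzyme of heme synthesis in red cells, was at least 129-fold lower at ZT0 and at least 44.4-fold higher at ZT12 in ALDH-high cells. Of the endothelial list, 2 of 5 genes were detected on all arrays: Kdr had -1.83 and 2.04, and Pecam1 had 0.54 and -0.04, opposite in sign to Pf4, while Tek and Tie1 were detected on no array. The part of these cells in the values of Pf4 and Clec1b was not tested.

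**Figure D4:**
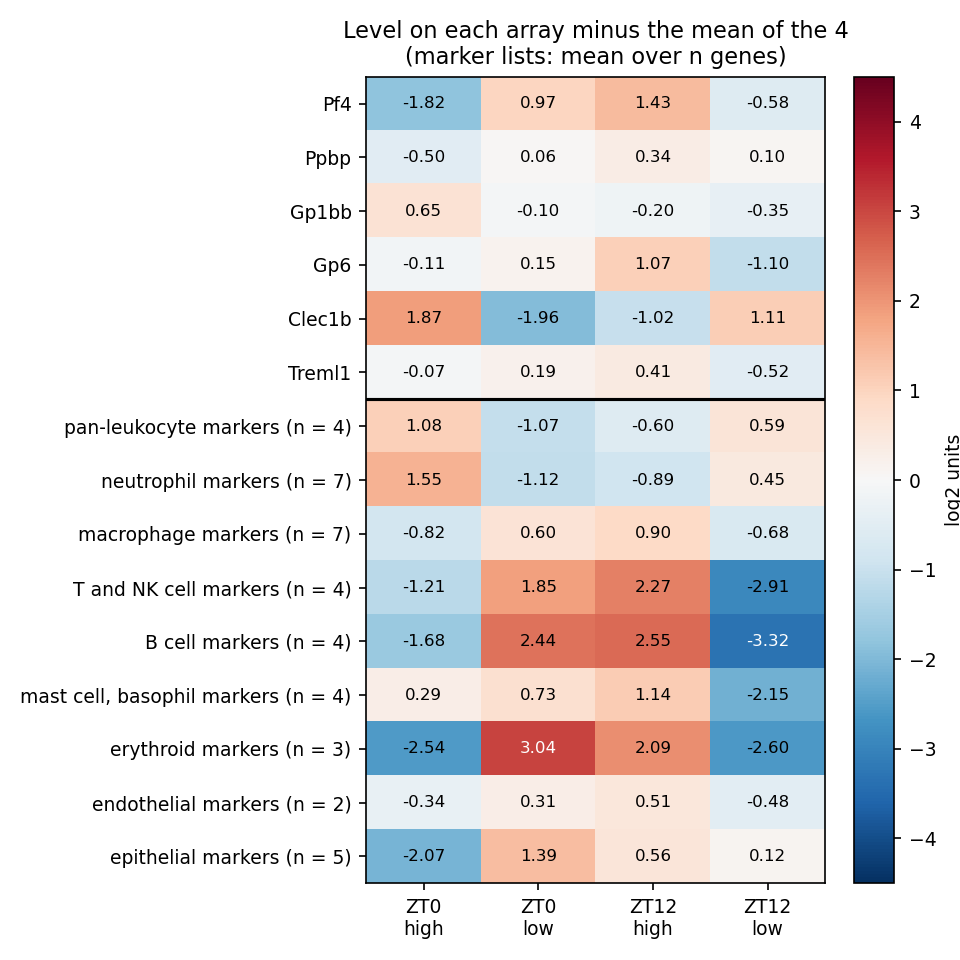
Level on each array minus the mean of the 4 arrays (colour and number, log2 units) for the 6 members detected on all arrays and, below the line, for marker lists as the mean over n genes. Pf4 and the macrophage markers share the signs of all 4 columns, as do Clec1b and the neutrophil markers, and other lists share each pattern too.

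The features with the pattern most like the mean of the 7 members detected on at least 2 arrays were ranked by the root mean square difference of centred levels over the 4 arrays. Among 12719 candidates, the nearest were Pou5f1 (0.020), Col13a1 (0.043), Rnase4 (0.044), Dhrs3 (0.048), C1rl (0.050), Lce1l (0.053), Nccrp1 (0.054), Cdkn2b (0.055), Sptbn5 (0.055) and Cngb1 (0.057). This mean profile spans only -0.24 to 0.24 log2 units, and Pf4 and Clec1b enter it with opposite signs. Of the 7, Gp9 entered with values not well above background in ZT0 ALDH-low and ZT12 ALDH-high cells. Over the 6 members detected on all arrays, the mean was 0.002 in ZT0 ALDH-high and -0.11 in ZT0 ALDH-low cells. At ZT12 it was 0.34 in ALDH-high and -0.22 in ALDH-low cells. The ranking was not repeated without Gp9. Between members the root mean square difference was 0.38 for Ppbp and Treml1, 0.44 for Gp6 and Treml1 and 2.79 for Pf4 and Clec1b.

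Other processing choices were tried for the 6 members detected on all 4 arrays, and the bounds of Gp9 were not recomputed under them. Pf4 and Clec1b kept their sign and stayed past 2-fold at both times under 6 alternatives. Across these, Pf4 ranged from -3.23 to -2.29 at ZT0 and from 1.07 to 2.33 at ZT12, and Clec1b from 2.24 to 4.33 and from -3.07 to -1.48. The 6 are not separate checks. Both genes have 1 probe, so the mean of all probes could not change their values. The series table nearly repeated quantile normalization (-3.21 and -3.23 for Pf4 at ZT0). Ppbp, Gp1bb and Treml1 changed sign under at least 1 alternative at ZT12, and Gp6, Gp1bb and Treml1 did so at ZT0. The signs given above for these genes in those comparisons therefore depend on the processing.

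**Figure D5:**
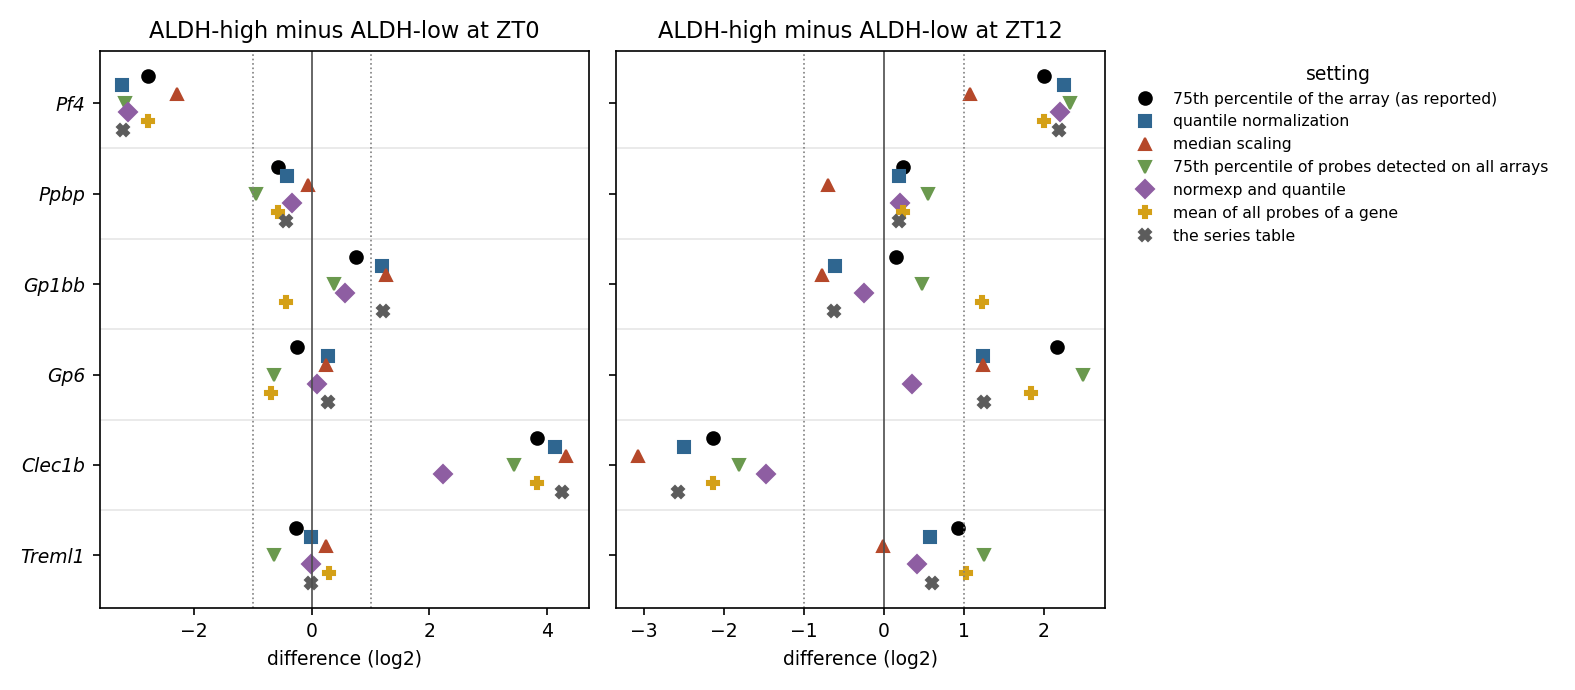
ALDH-high minus ALDH-low difference (x axis, log2) of the 6 members under the reported scaling (black circle) and 6 alternatives, at ZT0 (left) and ZT12 (right), with dotted lines at 2-fold. Pf4 and Clec1b lie outside the dotted lines in every setting shown, and the other 4 genes cross 0 or 2-fold in at least 1 panel.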

How the data were processed

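Total RNA was amplified and labelled with Cy3 for one-colour Agilent arrays, as the labels' protocols say. Agilent Feature Extraction 10.7.1.1 read the scans on a grid of build mm9, per the file headers (the submitters' processing notes give 9.5.1.1). Its processed signal, per the file headers, is a linear intensity from which the software took off the background of each array; the spot means, background medians, signal errors and flags deposited beside it were used as given. The authors' deposited series table also holds intensity values, which are quantile normalized. Its median was 28.3 in each column, and its rank correlation with the processed signal rounds to 1. What software made it is not stated in the labels or headers used here.

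Control spots were left out, replicate spots averaged as log2, and the 75th percentile of each array subtracted. The deposited files hold no log2 values; these were computed here. One probe stood for a gene, that with the highest mean level. Features detected on at least 2 of 4 arrays were fitted with limma 3.58.1 in R 4.3.3 (lmFit, eBayes, Benjamini-Hochberg, two-sided). The fit was also run on simulated data. It was required to recover known effects there only at a spread far smaller than that of these arrays. That run therefore does not show what the fit can detect here. Differences between 2 arrays have no test. The median SD of replicate spots was 0.0370 to 0.0454 log2 units, within arrays only. The genes named were the 8 members, 12 fixed further platelet genes (1 more is not reported here) and 11 fixed genes of other lists, and the 10 nearest by profile; C1qa, Mrc1, Csf1r, Cd68, S100a8, S100a9, Lat, Kdr, Tek, Tie1 and F2rl3, and those marked so in the text, were named after their values were seen. The members and the gene lists were chosen with earlier results of these data known. Alternatives were quantile normalization, median scaling, a percentile over detected probes, normexp with quantile, the mean of all probes, the series table, and other filters on dim probes.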

Additional observations from a re-analysis of the deposited data

Results flagged for a closer look

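In 5 of the 6 members detected on all arrays, the ALDH difference had opposite signs at the 2 times, which is why they are listed here; with 1 array a group the difference was not tested, and 84.8% of all features did the same. These signs are those under the reported scaling. Gp6 kept its ZT0 sign in 2 of 6 alternatives and Treml1 in 4 of 6. At ZT12, Ppbp and Treml1 each kept theirs in 5 of 6. For these 3 genes the change of sign thus depends on the processing. The ZT12 difference minus the ZT0 difference was 4.80 for Pf4, 0.81 for Ppbp, 2.43 for Gp6, 1.19 for Treml1 and -5.96 for Clec1b (log2 units). It coincides with array position, and the 2 cannot be told apart.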

How the results depend on the processing

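The median ALDH difference of the members at ZT0 (-0.26) was 0.13 with quantile normalization, 0.25 with median scaling, -0.64 with the percentile over detected probes, 0.041 with normexp, -0.50 with the mean of all probes and 0.13 with the series table. At ZT12 (0.58) it was 0.38, -0.35, 0.90, 0.28, 1.13 and 0.40 in the same order. The time difference in ALDH-low cells (-0.48) was -0.074, 0.40, -0.82, -0.010, -0.79 and -0.071, and that in ALDH-high cells (0.66) was 0.47, 0.10, 1.03, 0.19, 0.68 and 0.48, with 0.60 without a filter. The median over all features moved as well: over all features, median scaling gave a median of 0.21 for ZT0 and -0.71 for ZT12, where the 75th percentile gave -0.30 and 0.22. Pf4 in ALDH-low cells was 0.68 lower at ZT12 with median scaling, under 2-fold. Both filters on dim probes left the ZT0, ZT12 and ALDH-low medians where they were. The additive limma fit called 0 features for ALDH and for time under all 10 alternatives each (1 to 1915 and 0 to 362 at an unadjusted p under 0.05). No paired analysis was possible because each group has 1 array, so the replicate number could not serve as a block; terms for time or array position entered the limma fits instead. Leaving out a replicate was not possible for the same reason. Gp9, Gp5 and Gp6 are limited by signal near background, as is Clec1b in ZT0 ALDH-low and ZT12 ALDH-high cells (signals of 21.1 and 29.5).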

Other observations

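Genes with the pattern most like Pf4 and Clec1b taken alone were ranked in the same way, a choice made after the values were seen. Nearest to Pf4 were Tnfrsf9 (root mean square difference 0.091), Iigp1 (0.11), Hpgds (0.11), Ttl (0.12) and Pmepa1 (0.16), with Gas6, Mmp12, Chchd10, Arg1 and Anpep after them. Arg1, an enzyme of arginine breakdown, had ALDH differences of -2.27 at ZT0 and 1.94 at ZT12. Nearest to Clec1b were Noxred1 (0.045), Tnfsf14 (0.089), Trem3 (0.10), Sycp2 (0.11) and Ebf4 (0.11). Tnfsf14, which encodes the cytokine LIGHT, had 3.90 and -2.34, and Trem3, a myeloid receptor, 3.72 and -2.11.

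For T and NK cell markers the median ALDH difference was -3.35 at ZT0 and 5.06 at ZT12, and for B cell markers it was -4.19 and 5.61. Of the mast cell and basophil list, 4 of 4 genes were detected on all arrays. At ZT0, 0 of 4 were past 2-fold, against 49.3% of all features. At ZT12, 4 of 4 were at least 2-fold higher in ALDH-high cells, against 28.9%.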
